A study of Gallus gallus with 4 samples.

Results

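The genes described here encode the nuclear part of the mitochondrial respiratory chain and the SLC25A carriers, mostly of the inner mitochondrial membrane. They were taken by a rule on the symbol, and this group was chosen with earlier results of these data known. The rule took genes whose names start with NDUF (complex I), UQCR (complex III), COX4 to COX8 (complex IV), ATP5 (ATP synthase) or SLC25A (carriers). It also took the SDHA to SDHD genes of complex II. This gave 108 of the 18300 named genes, with 178 transcripts of 35667. Complex I had 30 genes, the complex I assembly factors 7, complex II 3, complex III 7, complex IV 7, ATP synthase 17 and the carriers 37. The first 6 classes, 71 genes in all, are called the respiratory chain here.

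The respiratory chain passes electrons from NADH and succinate through complexes I, II, III and IV to oxygen, and ATP synthase uses the proton gradient that complexes I, III and IV build to make ATP. Most carriers of the SLC25 family move nucleotides, phosphate, amino acids, fatty acid conjugates, cofactors and metal ions across the inner membrane. Mature photoreceptors are packed with mitochondria in their inner segments. Dividing retinal progenitors rely strongly on glycolysis, which does not set them apart from photoreceptors.

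RNA came from chick retinal explants of embryonic day 5 that had been electroporated with a GFP plasmid under ThrbCRM1, an enhancer of THRB, which encodes a thyroid hormone receptor, and with a UbiqC plasmid that expressed TdTomato. All explants carried both plasmids and were cultured for about 20 hours in medium with fetal bovine serum. Cells were sorted into cells with GFP and TdTomato (ThrbCRM1) and cells with TdTomato but no GFP (UbiqC). Each population had 2 libraries, A and B, and the labels name no separate animals or cultures for them. The plasmids are transient reporters, so the populations are defined by fluorescence at the time of sorting and not by lineage.

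The libraries held between 15673010 and 31659766 estimated counts. Levels are given as TPM, which is scaled to transcript length and library size, and each pair of values is in the order A, B. EGFP reached 9805 and 15147 TPM in the ThrbCRM1 libraries against 150 and 156 TPM in the UbiqC libraries. The labels call both populations retinal progenitor cells. The summed level of 6 multipotent progenitor markers was 543.5 and 430.9 TPM in ThrbCRM1 against 1254 and 1145 TPM in UbiqC. The sum of 9 photoreceptor markers was 3878 and 4516 TPM in ThrbCRM1 against 89 and 95.95 TPM in UbiqC. It includes THRB, at 309 and 419 TPM against 6.81 and 7.94 TPM. Its enhancer drove the sorted reporter, so that part is not independent of the sort. Of the 9, ARR3 was not called, at 0.578 and 0.643 TPM against 0.531 and 0.315 TPM. The sum of 4 genes of progenitors and glia was 2662 and 2370 TPM against 21020 and 21440 TPM. In UbiqC nearly all of it was FABP7, at 15656 and 15454 TPM, and CA2, at 5283 and 5881 TPM, so it does not tell glia from progenitors. The 4 horizontal cell markers summed to 324.6 and 279 TPM against 34.81 and 46.11 TPM. Of these, 3 were higher in ThrbCRM1, while PROX1 was lower, at 3.94 and 2.11 TPM against 18.9 and 24.0 TPM. The 4 ganglion cell markers summed to 280.5 and 240.7 TPM against 118 and 93.22 TPM. Most of that sum was NEFL, at 273 and 235 TPM against 102 and 79.8 TPM. ISL1 lay the other way, at 4.35 and 1.79 TPM against 12.3 and 10.4 TPM, and POU4F1 and POU4F2 were low in all libraries. Marker levels therefore differed between the populations along with every result below. The part of cell types in those results was not tested. In bulk libraries, fewer cells of a type and less RNA per cell cannot be told apart.

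Respiratory chain genes were mostly lower in ThrbCRM1 than in UbiqC, by modest amounts. In edgeR's quasi-likelihood test at an adjusted p of 0.05, 41 of 71 genes were lower (57.75%) and 2 were higher (2.817%). Across all 16778 genes tested, 20.9% were lower and 19.9% higher. The median log2 fold change (ThrbCRM1 minus UbiqC, on estimated counts) was -0.30 for the respiratory chain and -0.01 for all genes, and 62 of the 71 values were negative. None of the 71 genes was called with a change of at least 2-fold, which 17.3% of all genes were; their log2 fold changes ran from -0.67 to 0.44. In 55 of the 71 genes both UbiqC libraries lay above both ThrbCRM1 libraries in CPM, and in 6 the order was the opposite; over all genes these shares were 36.7% and 35.2%, or 72% in either direction.

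Summed over their members, all 6 respiratory chain classes were at a lower level in both ThrbCRM1 libraries than in both UbiqC libraries. The 71 genes together held 15857 and 15081 TPM in ThrbCRM1 against 18234 and 17524 TPM in UbiqC, a ratio of the group means of 0.865. The ratio was lowest for complex III at 0.798 and highest for the complex I assembly factors at 0.933. It was 0.832 for complex II, 0.846 for complex IV, 0.862 for complex I and 0.898 for ATP synthase. The carriers stood the other way, at 4749 and 4745 TPM in ThrbCRM1 against 4181 and 4171 TPM in UbiqC. Without SLC25A6, the most abundant of all members, the remaining carriers summed to 1698 and 1613 TPM in ThrbCRM1 against 1738 and 1743 TPM in UbiqC, a ratio of 0.951.

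**Figure D1:**
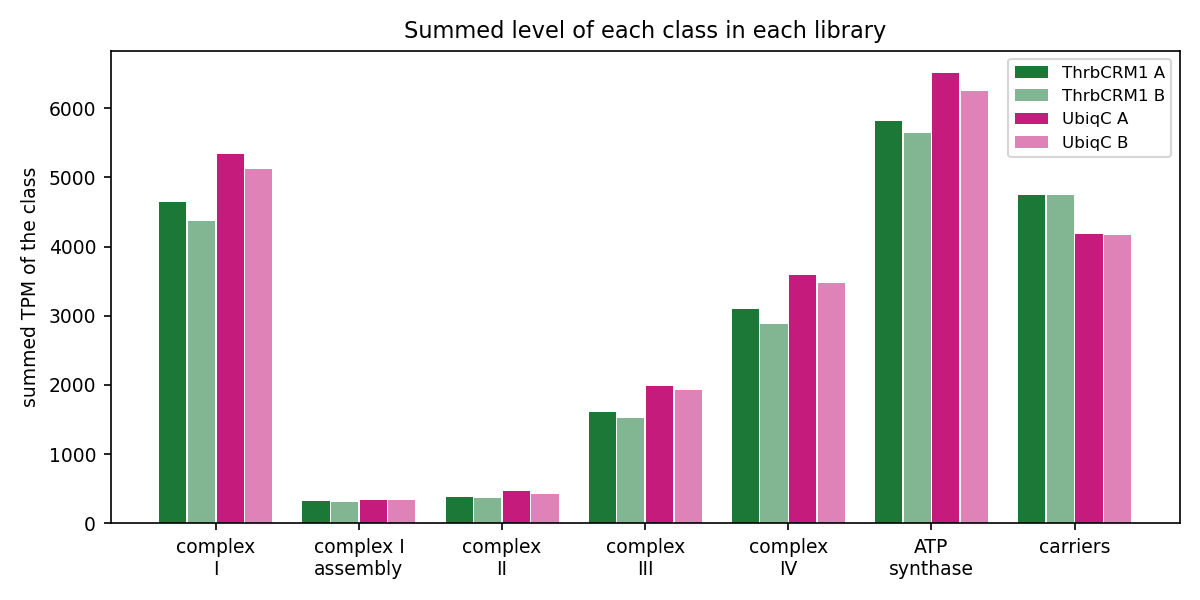
Summed TPM of each class (y axis, linear, from 0) in each of the 4 libraries (bars, green for ThrbCRM1 and magenta for UbiqC). Both ThrbCRM1 bars are below both UbiqC bars in the 6 respiratory chain classes and above them for the carriers, where SLC25A6 makes up between 58.2% and 66.0% of the sum.

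The size of the count of lower genes depended on single libraries. It was 19 without ThrbCRM1 A, 19 without ThrbCRM1 B, 24 without UbiqC A and 39 without UbiqC B, with 13.9%, 13.1%, 15.5% and 18% of all genes lower in the same fits. Of the 41 genes, 17 passed under all 13 alternative settings: NDUFA5, NDUFA8, NDUFB6, NDUFV2, SDHB, UQCRQ, UQCRH, UQCR10, COX5A, COX7A2, COX4I1, COX6C, ATP5F1, ATP5G1, ATP5G2, ATP5J2 and ATP5L. They include members of each complex and of ATP synthase.

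Complex I takes electrons from NADH and passes them to coenzyme Q. Of its 30 genes, 17 were lower in ThrbCRM1, 1 was higher and 12 did not pass the test, with a median log2 fold change of -0.29. The share lower was 56.7%, against 20.9% of all genes. Leaving out ThrbCRM1 A, ThrbCRM1 B or UbiqC A brought the count of lower genes down. Their share then lay much nearer that of all genes lower in the same fit than it did with all 4 libraries. NDUFA8, a supernumerary subunit, stood at 90.7 and 80.7 TPM in ThrbCRM1 against 138 and 122 TPM in UbiqC. The groups did not overlap, and the log2 fold change was -0.66 ± 0.11 (SE; edgeR adjusted p = 0.00501), the greatest decrease of the complex. NDUFB6, a subunit of the membrane arm, stood at 124 and 127 TPM in ThrbCRM1 and at 184 and 187 TPM in UbiqC (log2 fold change -0.62 ± 0.08 SE, edgeR adjusted p = 0.00203). NDUFV2, a core subunit of the NADH-oxidising module that carries an iron-sulfur cluster, stood at 155 and 148 TPM against 207 and 201 TPM (-0.49 ± 0.07 SE, edgeR adjusted p = 0.00305). In each of these genes the replicates of a population lay closer to each other than to the other population. They were named because they were called with separated libraries, so this adds no support.

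NDUFB2 and NDUFA5 fell by 0.60 and 0.56 on the log2 scale, the former not called without ThrbCRM1 B. NDUFB5, the most abundant member of complex I after NDUFA10, was at 274 and 244 TPM in ThrbCRM1 against 328 and 308 TPM in UbiqC (-0.35 ± 0.08 SE, edgeR adjusted p = 0.0179), and was called neither without ThrbCRM1 A, nor without ThrbCRM1 B, nor without UbiqC A. NDUFA4, named as a complex I subunit but found in complex IV in mammals, was at 247 and 254 TPM against 289 and 297 TPM (-0.29 ± 0.07 SE, edgeR adjusted p = 0.0168), and was not called without ThrbCRM1 A, without ThrbCRM1 B or once the transcript length trend described below was removed. Not every core subunit of the electron path was called. NDUFS1, which holds several iron-sulfur clusters, was at 101 and 93.3 TPM in ThrbCRM1 and at 98.7 and 96.4 TPM in UbiqC, and the populations overlapped (edgeR adjusted p = 0.449).

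NDUFA10 was the only complex I gene called higher. It stood at 333 and 335 TPM in ThrbCRM1 against 261 and 266 TPM in UbiqC, so its libraries were separated in the direction opposite to most of the complex (log2 fold change 0.32 ± 0.06 SE, edgeR adjusted p = 0.00833). It was not called without ThrbCRM1 B.

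The assembly factors help to build complex I and are not part of it. Of 7, 2 were lower (28.6%), 1 was higher (14.3%) and 4 did not pass, against 20.9% lower and 19.9% higher over all genes. The share called, 42.9%, was near the 40.8% of all genes. NDUFAF4 was at 31.5 and 27.5 TPM in ThrbCRM1 against 38.7 and 35.6 TPM in UbiqC (-0.41 ± 0.10 SE, edgeR adjusted p = 0.0227). NDUFAF1, the most abundant of them, was at 124 and 117 TPM against 139 and 143 TPM (-0.30 ± 0.07 SE, edgeR adjusted p = 0.0146). NDUFAF6 was higher, at 50.2 and 56.4 TPM against 33.5 and 41.0 TPM (0.44 ± 0.11 SE, edgeR adjusted p = 0.0213), the greatest increase in the respiratory chain. Without ThrbCRM1 A or without ThrbCRM1 B none of the 7 genes was called. NDUFAF4 and NDUFAF6 were not called without UbiqC A either, and all 3 calls held without UbiqC B. NDUFAF2 was at 58.7 and 43.1 TPM against 63.8 and 54.8 TPM, with overlapping populations.

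Complex II, succinate dehydrogenase, is shared by the citrate cycle and the respiratory chain, and its 3 measured subunits did not move together. SDHB, the iron-sulfur subunit, stood at 115 and 100 TPM in ThrbCRM1 against 148 and 145 TPM in UbiqC (-0.51 ± 0.09 SE, edgeR adjusted p = 0.00525). SDHC, a membrane anchor, was at 176 and 179 TPM against 248 and 210 TPM (-0.42 ± 0.13 SE, edgeR adjusted p = 0.0420), and was not called without ThrbCRM1 A, ThrbCRM1 B or UbiqC A. SDHA, the flavoprotein that oxidises succinate, lay the other way in all 4 libraries, at 83.7 and 87.5 TPM in ThrbCRM1 and 70.6 and 69.1 TPM in UbiqC. Its log2 fold change was 0.23 ± 0.08 (SE) and missed the threshold in edgeR (adjusted p = 0.0516). It passed in 7 of 13 alternative settings, among them edgeR with the letter as a block (adjusted p = 0.0231). Its q was 0.0211 in the authors' deposited table. With any library left out, it did not pass.

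Complex III passes electrons from reduced coenzyme Q to cytochrome c. Of its 7 genes 6 were lower in ThrbCRM1 (85.7%), against 20.9% of all genes. All 7 had both UbiqC libraries above both ThrbCRM1 libraries in CPM, as had 36.7% of all genes. UQCRH, the acidic hinge protein that helps cytochrome c to bind in other vertebrates, was at 420 and 395 TPM in ThrbCRM1 against 563 and 550 TPM in UbiqC (-0.51 ± 0.07 SE, edgeR adjusted p = 0.00200). The small subunits UQCRQ and UQCR10 fell by 0.52 ± 0.09 and 0.47 ± 0.08 (SE) on the log2 scale, and UQCRB fell by 0.39 ± 0.10 (SE). The greater decreases were in these small subunits. UQCRC1, a large core protein, was at 161 and 155 TPM against 184 and 187 TPM (-0.30 ± 0.06 SE, edgeR adjusted p = 0.0117). UQCRFS1, the Rieske iron-sulfur protein, was at 239 and 231 TPM against 275 and 265 TPM (-0.26 ± 0.07 SE, edgeR adjusted p = 0.0258). UQCRC2, the other core protein, was at 213 TPM in both ThrbCRM1 libraries and at 216 and 218 TPM in UbiqC, a log2 fold change of -0.09 that did not pass (edgeR adjusted p = 0.331). The count of lower genes was 3 without ThrbCRM1 A, 3 without ThrbCRM1 B and 4 without UbiqC A. UQCRB and UQCRFS1 were lost in all 3 of these fits, and UQCRC1 in the first 2.

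Complex IV reduces oxygen to water. Of its 7 nuclear genes 4 were lower and none was higher, and these 4 were called with each library left out in turn. The share lower in the main test was 57.1%, against 20.9% of all genes. COX5A, a subunit on the matrix side, was at 426 and 361 TPM in ThrbCRM1 against 570 and 546 TPM in UbiqC (-0.56 ± 0.09 SE, edgeR adjusted p = 0.00372). COX4I1, the widely expressed form of subunit 4, was at 528 and 520 TPM against 671 and 677 TPM (-0.42 ± 0.06 SE, edgeR adjusted p = 0.00285). COX6C was at 373 and 353 TPM against 462 and 460 TPM (-0.40 ± 0.07 SE, edgeR adjusted p = 0.00499). The gap between populations was wider than that between replicates in each of these, which their choice as called genes with separated libraries favours. The most abundant subunits of the complex did not pass: COX7C was at 789 and 744 TPM against 821 and 750 TPM, and COX6A1 at 663 and 596 TPM against 703 and 693 TPM (edgeR adjusted p = 0.397 and 0.0619).

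COX7A2 and COX7A2L are related genes with separate roles, the former a subunit of complex IV and the latter a factor that joins complexes III and IV into supercomplexes in mammals. COX7A2 was at 156 and 152 TPM in ThrbCRM1 against 210 and 200 TPM in UbiqC (-0.47 ± 0.08 SE, edgeR adjusted p = 0.00401). COX7A2L was at 165 and 155 TPM against 158 and 151 TPM, and its populations overlapped (0.03, edgeR adjusted p = 0.781). COX7A2 thus made up 48.6% and 49.5% of the summed TPM of the pair in ThrbCRM1 and 57.1% and 57.0% in UbiqC. The transcripts of COX7A2L differed in share between the populations. One of its 3 transcript models held 16.4% and 18.5% of the gene's TPM in ThrbCRM1 A and B and 3.59% and 2.16% in UbiqC A and B, while the main model held 75.3% and 75.9% against 85.2% and 89.8%. These shares are kallisto estimates and were not tested.

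ATP synthase consists of a catalytic head and a membrane part with a rotating ring of c subunits. Of the 17 genes taken by the name ATP5, not all of which need encode these parts, 10 were lower in ThrbCRM1, none was higher and 7 did not pass. The share lower was 58.8%, against 20.9% of all genes. The count of lower genes was 5 without ThrbCRM1 A and 6 without ThrbCRM1 B. The decreases were greatest in genes of the membrane part and stalk. ATP5J2, subunit f, was at 213 and 177 TPM in ThrbCRM1 against 302 and 293 TPM in UbiqC (-0.67 ± 0.10 SE, edgeR adjusted p = 0.00356). ATP5L, subunit g, was at 365 and 342 TPM against 476 and 497 TPM (-0.52 ± 0.07 SE, edgeR adjusted p = 0.00185). ATP5F1, subunit b of the outer stalk, was at 474 and 460 TPM against 601 and 589 TPM (-0.41 ± 0.06 SE, edgeR adjusted p = 0.00356). The head differed from this. ATP5B, the catalytic beta subunit, was at 842 and 879 TPM in ThrbCRM1 and at 733 and 714 TPM in UbiqC, and ATP5A1, the alpha subunit, at 545 and 515 TPM against 490 and 474 TPM. Both therefore had higher levels in both ThrbCRM1 libraries, but neither passed in the main edgeR test (log2 fold change 0.19 ± 0.07 SE, adjusted p = 0.0788 for ATP5B, and 0.07 ± 0.07 SE, adjusted p = 0.430 for ATP5A1). ATP5B passed in 6 of 13 alternative settings, among them edgeR with the letter as a block (adjusted p = 0.0419) and the DESeq2 Wald test (adjusted p = 0.0358), and had q = 0.0285 in the authors' deposited table. Its adjusted p over the alternatives ran from 0.0126 to 0.353, and it did not pass with any library left out. ATP5I, subunit e, had the highest mean level of the class, at 848 and 839 TPM against 936 and 761 TPM, and overlapped between populations.

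The central stalk genes ATP5C1, ATP5D and ATP5E (gamma, delta and epsilon) were among the genes that were lower, by 0.29, 0.29 and 0.32 on the log2 scale. None of these 3 calls held without ThrbCRM1 A or without ThrbCRM1 B, and those of ATP5D and ATP5E were also lost without UbiqC A. The c subunit is encoded by ATP5G1, ATP5G2 and ATP5G3, which give an identical mature protein in mammals and differ in their import signals. ATP5G1 was at 259 and 248 TPM in ThrbCRM1 against 353 and 347 TPM in UbiqC (-0.52 ± 0.07 SE, edgeR adjusted p = 0.00193). ATP5G2 was at 163 and 153 TPM against 212 and 209 TPM (-0.47 ± 0.08 SE, edgeR adjusted p = 0.00441). ATP5G3, the most abundant, was at 510 and 520 TPM against 554 and 562 TPM and did not pass (-0.18 ± 0.06 SE, edgeR adjusted p = 0.0756). ATP5G3 thus held 54.7% and 56.5% of the set in ThrbCRM1 and 49.5% and 50.3% in UbiqC. ATP5A1W, the copy of ATP5A1 on the chicken W chromosome, held between 2.41% and 4.80% of the summed TPM of the 2 genes. Reads could be split between the copies within such sets, so the values of single copies are uncertain.

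**Figure D2:**
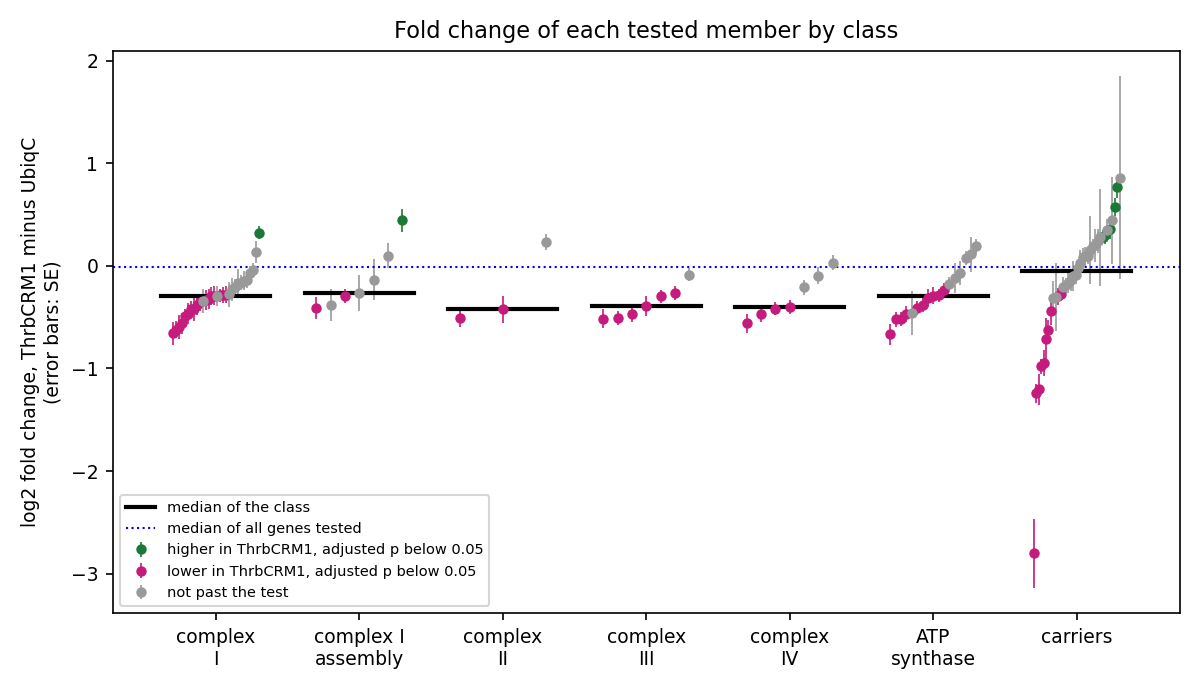
Log2 fold change of each of the 107 tested genes (y axis, ThrbCRM1 minus UbiqC) by class, ordered by value within a class. Error bars are SE, derived from edgeR's log2 fold change and F value. Black lines are class medians and the dotted line the median of all genes tested; the medians of the 6 respiratory chain classes lie between -0.27 and -0.42, and that of the carriers at -0.05.

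The carriers did not share the direction of the respiratory chain. Of 36 carriers tested, 5 were higher in ThrbCRM1 (13.9%), 10 were lower (27.8%) and 21 did not pass. The share called, 41.7%, was close to the 40.8% of all genes tested, and the median log2 fold change was -0.05. The changes of those that passed were wider than in the chain, from -2.80 to 0.77. At least 2-fold lower were 3 of the 36 carriers and 1453 of all 16778 genes, which are similar shares. SLC25A48 had too few counts to be tested. Calls that held under all 13 alternative settings were SLC25A14 and SLC25A22 among the higher and SLC25A4, SLC25A13, SLC25A15, SLC25A20 and SLC25A42 among the lower carriers. SLC25A21 held in the 12 settings in which it was tested, and was left out by the filter at 5 CPM. With either ThrbCRM1 library left out, fewer carriers were called in each direction, as were fewer of all genes.

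The ADP/ATP carriers exchange ATP made in the matrix for ADP from the cytosol. SLC25A6 was the most abundant, at 3051 and 3133 TPM in ThrbCRM1 against 2442 and 2428 TPM in UbiqC. It was higher in ThrbCRM1 (0.28 ± 0.06 SE, edgeR adjusted p = 0.0137), but the call was lost without ThrbCRM1 B (0.24, edgeR adjusted p = 0.0908). The other two members of this set lay in the opposite direction. SLC25A5 was at 227 and 210 TPM against 260 and 244 TPM (-0.27 ± 0.08 SE, edgeR adjusted p = 0.0321), a call lost in 7 of 13 alternative settings. SLC25A4 was at 12.5 and 11.3 TPM against 21.1 and 23.01 TPM (edgeR adjusted p = 0.00190). SLC25A6 made up 92.7% and 93.4% of the set in ThrbCRM1 and 89.7% and 90.1% in UbiqC, so the minor forms together held a smaller share in ThrbCRM1. SLC25A3, which brings phosphate into the matrix for ATP synthesis, was at 606 and 559 TPM against 611 and 601 TPM, and overlapped between populations (-0.02, edgeR adjusted p = 0.796).

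The aspartate-glutamate carriers of the malate-aspartate shuttle, which moves reducing equivalents from cytosolic NADH into the mitochondrion, changed in opposite directions. SLC25A12, known as aralar and the main form of adult mammalian neurons, was at 48.5 and 45.2 TPM in ThrbCRM1 against 39.4 and 35.9 TPM in UbiqC (0.30 ± 0.08 SE, edgeR adjusted p = 0.0317). SLC25A13, known as citrin and the main form of mammalian liver, was at 23.1 and 22.8 TPM against 43.0 and 43.7 TPM (-0.98 ± 0.08 SE, edgeR adjusted p = 0.000223). SLC25A12 made up 67.8% and 66.4% of the summed TPM of the pair in ThrbCRM1 and 47.8% and 45.1% in UbiqC. The decrease of SLC25A13 held in every alternative setting, while the call of SLC25A12 was lost without ThrbCRM1 A, ThrbCRM1 B or UbiqC B. SLC25A11, the oxoglutarate carrier of the same shuttle, was at 83.5 and 83.8 TPM against 94.8 and 85.3 TPM and did not pass.

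**Figure D3:**
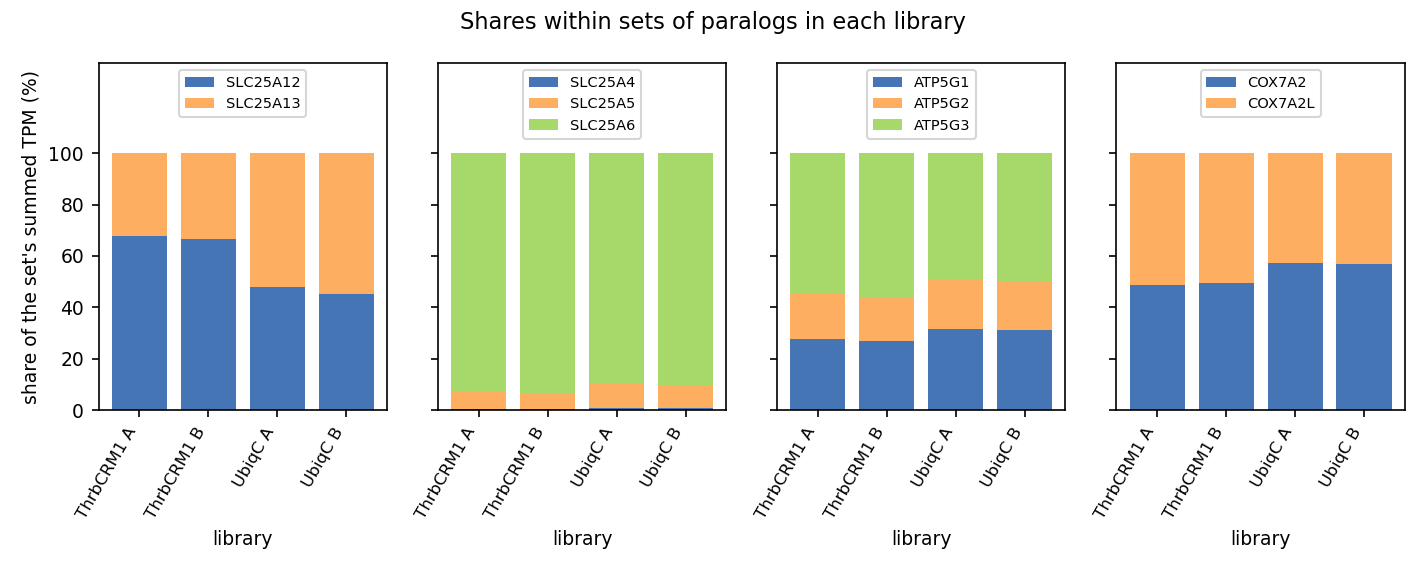
Share of the summed TPM of a set of related genes (y axis, percent) that each member held in each library, for 4 sets. SLC25A12 held 67.8% and 66.4% of its pair in the ThrbCRM1 libraries and 47.8% and 45.1% in the UbiqC libraries, the widest difference of the 4 sets; the shares have no test.

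The 3 carriers that were lower by at least 2-fold handle fatty acid conjugates, coenzyme A and breakdown products of amino acids. SLC25A20, which exchanges acylcarnitine for carnitine and so brings long-chain fatty acids to oxidation, was at 36.5 and 33.4 TPM in ThrbCRM1 against 73.1 and 85.2 TPM in UbiqC (-1.24 ± 0.09 SE, edgeR adjusted p = 0.000187). SLC25A42, a carrier of coenzyme A, was at 4.67 and 3.72 TPM against 10.0 and 8.74 TPM (-1.21 ± 0.15 SE, edgeR adjusted p = 0.00147). SLC25A21, which carries oxodicarboxylates of lysine and tryptophan breakdown, was at 1.47 and 0.750 TPM against 7.10 and 8.60 TPM (-2.80 ± 0.33 SE, edgeR adjusted p = 0.00122). The levels of the last 2 were low in all libraries. Their populations were separated, as the choice of these named genes required. SLC25A42 also differed in the estimated use of its 5 transcript models: a single model held 65.7% and 61.4% of its TPM in ThrbCRM1 and 22.9% and 28.8% in UbiqC, a share that was not tested and that rests on few counts.

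Among the amino acid carriers, SLC25A22, which imports glutamate, showed the greatest increase among all carriers that passed the test. It was at 17.8 and 16.6 TPM in ThrbCRM1 against 9.71 and 9.67 TPM in UbiqC (0.77 ± 0.10 SE, edgeR adjusted p = 0.00188). SLC25A15 is the ornithine carrier of the urea cycle in mammals. It was at 16.4 and 16.7 TPM against 25.0 and 23.8 TPM (edgeR adjusted p = 0.00295). These 2 amino acid carriers thus changed in opposite directions.

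SLC25A14, a brain-enriched relative of the uncoupling proteins in mammals, was at 64.3 and 59.9 TPM in ThrbCRM1 against 38.8 and 41.3 TPM in UbiqC (0.57 ± 0.09 SE, edgeR adjusted p = 0.00313). Its relative SLC25A30 was at 6.25 and 5.95 TPM against 6.71 and 7.88 TPM and did not pass. SLC25A33, a pyrimidine nucleotide carrier, was at 71.8 and 74.9 TPM against 50.6 and 58.8 TPM (0.36 ± 0.10 SE, edgeR adjusted p = 0.0281), and was not called without ThrbCRM1 A, ThrbCRM1 B or UbiqC A. The related pyrimidine nucleotide carrier SLC25A36 overlapped between populations (0.09, edgeR adjusted p = 0.464).

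SLC25A37, mitoferrin 1, the iron importer of developing red cells in other vertebrates, was at 2.53 and 3.07 TPM in ThrbCRM1 against 3.85 and 4.84 TPM in UbiqC (-0.71 ± 0.20 SE, edgeR adjusted p = 0.0345), a call lost in 7 of 13 alternative settings. The 3 red cell markers found, TAL1, SLC4A1 and EPB42, summed to 0.474 and 0.642 TPM in ThrbCRM1 and 1.16 and 1.01 TPM in UbiqC. No globin gene was among them, so these sums cannot show whether red cells were present. TAL1, though near 0 in all libraries, was itself lower in ThrbCRM1 (-3.10, edgeR adjusted p = 0.00978). Mitoferrin 2, SLC25A28, was at 53.9 and 44.1 TPM against 50.3 and 42.6 TPM and overlapped. SLC25A39, a glutathione carrier in mammals, was at 45.7 and 47.4 TPM against 54.6 and 55.6 TPM, and SLC25A43 at 10.3 and 12.2 TPM against 13.9 and 15.2 TPM. Both were lower (-0.30 with edgeR adjusted p = 0.0301, and -0.44 with edgeR adjusted p = 0.0406), with calls lost in 6 and 7 of 13 alternative settings.

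**Figure D4:**
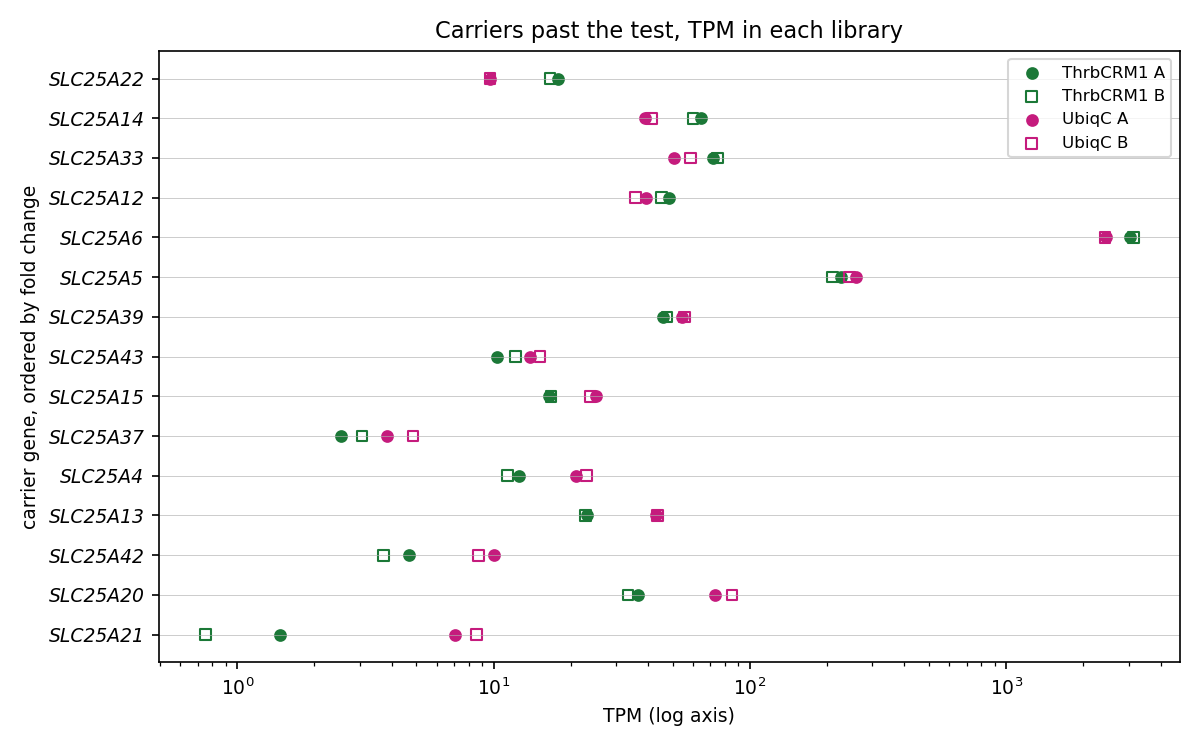
TPM (x axis, log scale) of the 15 carriers that passed the test, in each library (circles for A, squares for B, green for ThrbCRM1, magenta for UbiqC), ordered by fold change. SLC25A21, between 0.750 and 8.60 TPM, has the widest gap between populations, and SLC25A6, above 2400 TPM in all libraries, lies far to the right of the rest.

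Genes that work beside the respiratory chain were compared through lists chosen by function. Their counts stand beside the 20.9% of all genes that were lower and the 19.9% that were higher. With a library left out, fewer of all genes were lower, and the shares given above for those fits apply instead. Among 5 electron carriers and flavoproteins, 3 were lower (60%) and none was higher. ETFB, a subunit of the flavoprotein that collects electrons from fatty acid oxidation, was at 60.9 and 57.6 TPM in ThrbCRM1 against 109 and 102 TPM in UbiqC (-0.89 ± 0.10 SE, edgeR adjusted p = 0.00109). Its partner subunit ETFA was at 260 and 264 TPM against 231 and 234 TPM and did not pass (edgeR adjusted p = 0.237). AIFM1, a flavoprotein needed for assembly of the chain, was at 78.8 and 78.2 TPM against 99.5 and 107 TPM (-0.45, edgeR adjusted p = 0.00314). Cytochrome c and cytochrome c1 are not analysed here.

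Of 12 coenzyme Q genes, 5 were lower (41.7%) and 1 was higher (8.33%). The lower genes numbered 1 without ThrbCRM1 A, 0 without ThrbCRM1 B and 3 without either UbiqC library in edgeR. The exception was ADCK3, an atypical kinase-like protein needed for coenzyme Q synthesis, at 169 and 180 TPM in ThrbCRM1 against 103 and 106 TPM in UbiqC (0.67 ± 0.07 SE, edgeR adjusted p = 0.000810). COQ10B, a coenzyme Q binding protein, was at 7.43 and 6.18 TPM against 13.4 and 11.8 TPM (-0.94, edgeR adjusted p = 0.0101), and was not called without ThrbCRM1 B.

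Of 31 assembly factors outside the symbol rule, 10 were lower (32.3%) and 2 were higher (6.45%). Fewer were lower without ThrbCRM1 A, without ThrbCRM1 B or without UbiqC A. Without either ThrbCRM1 library, their share was no greater than that of all genes lower in the same fit. ATPAF1, a chaperone that binds the beta subunit of ATP synthase, was at 26.8 and 24.6 TPM in ThrbCRM1 against 56.4 and 60.9 TPM in UbiqC (-1.25 ± 0.08 SE, edgeR adjusted p = 0.000105). NUBPL, which delivers iron-sulfur clusters to complex I, was at 13.4 and 12.6 TPM against 25.83 and 26.02 TPM (-1.06 ± 0.09 SE, edgeR adjusted p = 0.000343). Both of these factors changed by more than any respiratory chain gene. The higher ones were COX11 and COX19, both needed to supply copper to complex IV, with log2 fold changes of 0.48 and 0.44; neither was called without ThrbCRM1 B, COX11 also not without UbiqC A and COX19 not without ThrbCRM1 A.

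The mitochondrial ribosome translates the subunits encoded by mitochondrial DNA. Of its 70 genes 36 were lower (51.4%) and none was higher, with a median log2 fold change of -0.33, near the -0.30 of the respiratory chain. MRPL54 was at 123 and 117 TPM in ThrbCRM1 and 201 TPM in both UbiqC libraries (-0.80 ± 0.08 SE, edgeR adjusted p = 0.000684). MRPS23 was at 78.9 and 75.6 TPM against 117 and 125 TPM (-0.71 ± 0.08 SE, edgeR adjusted p = 0.000976). Among 19 genes of protein import 9 were lower (47.4%) and none was higher. TOMM6, a small subunit of the outer membrane import pore, was at 209 and 202 TPM against 339 and 306 TPM (-0.71 ± 0.10 SE, edgeR adjusted p = 0.00194). The counts of lower genes in these lists were 19 and 4 without ThrbCRM1 A, 14 and 4 without ThrbCRM1 B, and 23 and 5 without UbiqC A.

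Of 17 regulators of mitochondrial biogenesis and mitochondrial DNA, 3 were higher and 3 were lower, 17.6% each way and near the shares of all genes. Without ThrbCRM1 A, without ThrbCRM1 B or without UbiqC A, 1 was higher and 0 were lower in edgeR. ESRRG, an orphan nuclear receptor that activates respiratory chain genes in mammalian muscle and heart, was at 77.9 and 76.2 TPM in ThrbCRM1 against 9.75 and 14.7 TPM in UbiqC. It was higher in ThrbCRM1 (2.56 ± 0.17 SE, edgeR adjusted p = 0.000117), in the direction opposite to most respiratory chain genes. NRF1, a transcription factor of respiratory chain genes, was at 40.2 and 39.8 TPM against 31.2 and 33.8 TPM (0.35 ± 0.08 SE, edgeR adjusted p = 0.0165), a call lost in the same 3 fits. The coactivator PPARGC1A was low in all libraries, at 2.09 and 2.64 TPM against 1.40 and 1.87 TPM, and did not pass (0.40, edgeR adjusted p = 0.202). TFAM, which packs and transcribes mitochondrial DNA, was at 139 and 122 TPM against 153 and 140 TPM (-0.22, edgeR adjusted p = 0.0978).

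Reads assigned to mitochondrial DNA, in the authors' deposited sheet of read classes, made up 3.37% and 2.97% of reads in ThrbCRM1 A and B and 3.55% and 3.35% in UbiqC A and B. The populations overlapped, since ThrbCRM1 A lay just above UbiqC B. This share is of all reads, and the sheet does not split it by gene.

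Of 15 genes for outer membrane channels, pyruvate entry, calcium uptake and uncoupling, 6 were lower (40%) and 3 were higher (20%, as in all genes). Without ThrbCRM1 A there were 5 lower and 1 higher, without ThrbCRM1 B 2 lower and 1 higher, and without UbiqC A 3 lower. MPC1, a subunit of the mitochondrial pyruvate carrier, was at 60.4 and 51.6 TPM in ThrbCRM1 against 97.2 and 91.2 TPM in UbiqC (-0.81 ± 0.09 SE, edgeR adjusted p = 0.00113). MICU2, which gates the calcium uniporter, was at 9.09 and 8.41 TPM against 13.1 and 16.4 TPM (-0.82, edgeR adjusted p = 0.00300). The 3 porins of the outer membrane were split, with VDAC3 higher by 0.32 and VDAC1 and VDAC2 lower, at -0.65 and -0.28 on the log2 scale. None of the 3 calls held without ThrbCRM1 B; VDAC2 and VDAC3 were also lost without ThrbCRM1 A, and VDAC1 and VDAC2 without UbiqC A.

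Of 16 tested genes of the hypoxia response, 9 were lower in ThrbCRM1 (56.2%) and 2 were higher (12.5%). SLC2A1, the main glucose transporter of the cell surface, was at 152 and 131 TPM in ThrbCRM1 against 634 and 646 TPM in UbiqC, a log2 fold change of -2.24. NDRG1, a stress-induced gene, was at 93.8 and 104 TPM against 302 and 277 TPM, a log2 fold change of -1.61. The higher ones were HK2, a hexokinase, and PFKFB3, which stimulates glycolysis, at 0.85 and 0.41; PFKFB3 was not called without ThrbCRM1 A or without either UbiqC library.

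Transcript length moved with the fold changes across all genes, and respiratory chain transcripts are short. Their median length was 733 bases, against 2390 bases for the carriers and 2720 bases for all other genes. Among other genes, the median log2 fold change was -0.12 below 1000 bases and 0.12 at 4000 bases and over. In the same short class 45 respiratory chain genes had a median of -0.35, and 30 of them (66.7%) were lower, against 19% of 1942 other genes. Levels moved with it too: of 660 other short genes with a mean of at least 50 TPM, 37.6% were lower and 8.48% higher, with a median of -0.22. Between 1000 and 2000 bases, 43.5% of 23 respiratory chain genes and 36.9% of 1039 other genes at this level were lower.

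When the trend on length was removed within edgeR, a setting added after the data were seen, 28 of 71 respiratory chain genes were lower (39.4%) and 4 were higher, with a median of -0.19, against 20.6% lower and 20% higher over all genes. Complex III kept 5 lower genes, complex IV 4, ATP synthase 7 and complex I 9. ATP5B and SDHA were called higher in that fit, with log2 fold changes of 0.28 and 0.27. The carriers were little affected, with 5 higher and 9 lower. The mitochondrial ribosome had 27 of 70 genes lower and 1 higher. The shares over all genes in this fit do not account for level. Of the 71 respiratory chain genes, 54 had a mean of at least 100 TPM. In the main test, 31.3% of the 3594 genes with a mean of at least 50 TPM were lower and 22.7% were higher. The shares of such genes with the length trend removed are not given here.

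**Figure D5:**
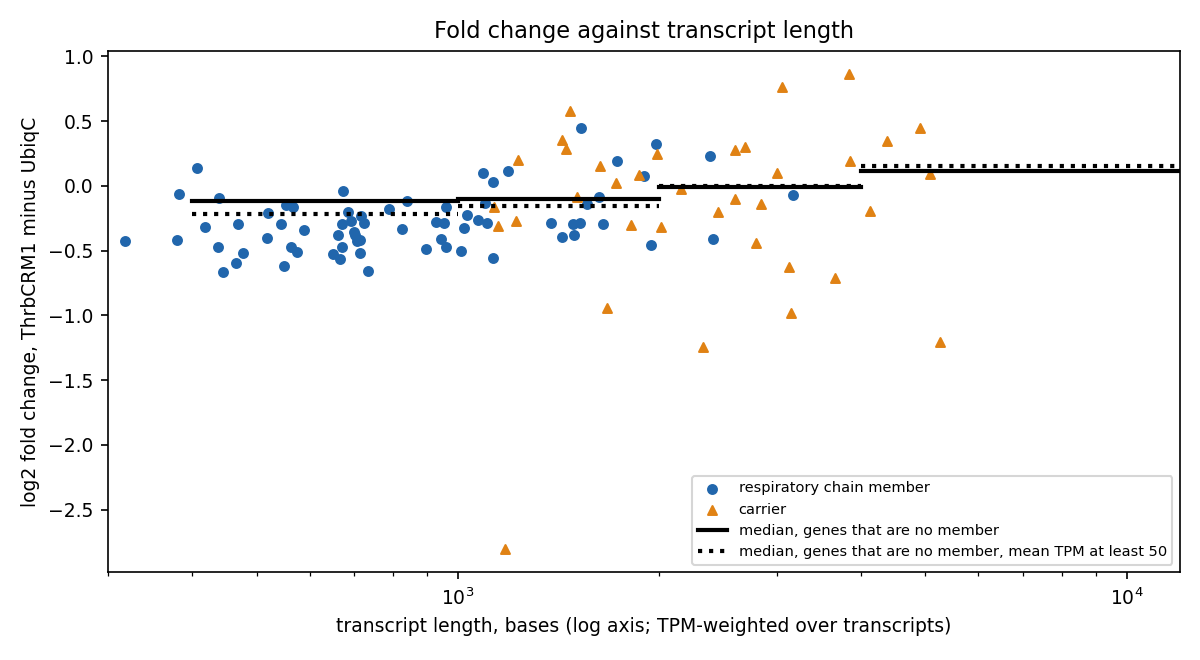
Log2 fold change (y axis, ThrbCRM1 minus UbiqC) against transcript length in bases (x axis, log scale) for respiratory chain genes (blue circles) and carriers (orange triangles). Horizontal lines are medians of genes outside the 2 groups in 4 length classes, solid for all and dotted for a mean of at least 50 TPM; they rise from -0.12 and -0.22 below 1000 bases to 0.12 and 0.15 at 4000 bases and over, while most blue circles lie below both lines.

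The authors' deposited table, made with sleuth, held all 108 genes. At a q-value below 0.05 it had 46 respiratory chain genes lower and 4 higher in ThrbCRM1, and 11 carriers lower and 6 higher, with 21.3% and 18.6% of all its genes lower and higher, 39.9% in all. All 58 genes called by edgeR were also called in the authors' deposited table, in the same direction; both rest on the same 4 libraries.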

How the data were processed

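RNA of 4 libraries of sorted chick retinal cells, 2 of each population, was analysed, with groups taken from the titles. Per the submitters' processing notes, kallisto and sleuth were used with galGal5; their versions are not given in the sources used here. As the file headers show, the authors deposited expected counts and TPM per transcript, with transcript lengths. The sleuth table deposited by the authors lists a p-value, a q-value and a natural log effect per gene. The authors' deposited transcript sheet holds a scaled TPM signal, used here only to pair transcripts with gene names, and a further deposited sheet gives the fraction of reads per class.

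Summing the expected counts of its transcripts and rounding gave each gene its count. Symbols turned into dates were renamed through the RefSeq gene table by accession, and its coordinates were not used because its assembly differs from galGal5. The reporters EGFP and TdTomato were not treated as genes. The main test was edgeR 4.0.16 in R 4.3.3 (TMM, filterByExpr with a minimum count of 10, quasi-likelihood F test, Benjamini-Hochberg adjustment over 16778 genes, threshold 0.05, 2 residual degrees of freedom, biological coefficient of variation 10.6%). It was also run on counts simulated from the means and dispersions of these libraries, which cannot check those dispersion estimates. No result of that run is used here. Each SE was calculated as the absolute log2 fold change divided by the square root of edgeR's F value. Other settings used the letter as a block, DESeq2 1.42.0 size factors and its Wald test, no filter, at least 5 CPM in 2 libraries, limma 3.58.1 on log2(TPM + 1), filtered at 1 TPM or unfiltered, and on log2(TPM + 0.1), each library left out in turn, and, added after the data were seen, removal of the length trend. Libraries of a population differed beyond counting noise, with a chi-square of 8.24 (ThrbCRM1) and 9.84 (UbiqC) for each degree of freedom. Nothing says that A and B are separate cultures, so a p-value measures only how these libraries spread, and that spread may be technical.

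The genes and lists were chosen with earlier results of these data known. Named genes were, per class, the 5 greatest increases and decreases that passed with separated libraries and a mean of at least 1 CPM, the 2 most abundant, the members of a related set with a called gene, and 2 genes per list. Others, such as SDHA, ATP5A1, ATP5A1W, NDUFS1, UQCRC2, UQCRFS1, SLC25A11, SLC25A39, SLC25A43, ETFA, COX11, COX19, the 3 VDAC genes, HK2 and PFKFB3, were named after their values were seen. NDUFAB1 was placed in complex I, and the ATP5A1 pair added, after the files were read. Some genes that the symbol rule takes are counted but not reported by name here.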

Additional observations from a re-analysis of the deposited data

Results flagged for a closer look

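Read classes of the authors' deposited sheet that the comparisons do not use were above the UbiqC level in ThrbCRM1; neither difference was tested. The class named ThrbCRM1-GFP made up 1.37% and 2.02% of reads in ThrbCRM1 A and B, a mean of 1.695%, against 0.03% and 0.02% in UbiqC A and B. The populations were sorted on GFP, so the direction of this difference was set by the sort. Reads that the sheet leaves unaccounted for made up 2.90% and 2.38%, a mean of 2.64%, against 1.69% and 1.28%.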

How the results depend on the processing

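No named gene that passed the test changed sign under any alternative run. The 41 lower respiratory chain genes numbered 28 with the length trend removed, between 33 and 50 under the other settings and between 19 and 39 with a library left out. The 2 higher ones numbered 4 with the replicate block, 4 in each of the 3 limma fits on TPM, 4 with the length trend removed, and between 0 and 2 with a library left out. The 5 higher carriers numbered between 2 and 5, and the 10 lower carriers between 6 and 7, with a library left out; under the other settings they numbered between 5 and 7 and between 7 and 11. With a library left out, the lone library of a population was assumed to vary like the other pair, and all-gene calls fell from 6838 to between 4474 and 6040. Treating the letter as a replicate block gave 50 lower and 4 higher respiratory chain genes and 11 lower and 7 higher carriers. In that fit 25.9% of all genes were lower and 24.0% higher, 8368 calls in all. The labels do not say that a letter marks a shared culture. With 2 pairs, the correlation of 0.441 between the deviations of the A libraries over 9851 genes does not establish pairing. The cause of these changes was not tested. Of the carriers, 12 had a mean below 10 TPM, among them SLC25A48, which had too few counts to be tested. A low TPM need not mean few counts, since SLC25A42 had between 160 and 767 in a library.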
